A study of Mus musculus with 6 samples.

Results

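The enzymes that turn cholesterol into bile acids were followed in mouse liver through 10 genes of 19938 tested: Cyp7a1, Cyp8b1, Cyp27a1, Cyp7b1, Cyp39a1, Hsd3b7, Akr1d1, Amacr, Slc27a5 and Baat. The genes were listed by their known place in the classic and alternative pathways of bile acid synthesis and in conjugation. Earlier results of these data were known when they were listed. All 10 were measured, each by 1 probe set annotated to that gene alone. A probe set is the group of short probes on the array that reads 1 transcript.

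Total RNA of livers from male C57BL/6 mice, an inbred strain, was hybridised to 6 Affymetrix mouse gene arrays, 3 for each diet. The mice were 6 weeks old when obtained and had 1 week of acclimatization on chow. The cholesterol group (arrays CH1 to CH3) then ate chow with cholesterol powder added at 1% of its weight, and the lovastatin/ezetimibe group (LE1 to LE3) ate chow with 100 mg of lovastatin and 21 mg of ezetimibe in each 100 g. Lovastatin, a statin, inhibits cholesterol synthesis, and ezetimibe blocks sterol absorption in the intestine. No chow-fed sample was analysed, so a gene described as higher in 1 group may equally have been lower in the other than on chow. The labels give neither the length of the feeding nor the hour of collection, and they name the arrays biological replicates without assigning them to animals, so p-values measure the spread between arrays.

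Bile acids are made in hepatocytes. The classic pathway starts with Cyp7a1, which hydroxylates the cholesterol ring, whereas the alternative pathway starts with Cyp27a1, which oxidises the side chain, and continues with Cyp7b1. Both pathways share enzymes that remodel the ring and shorten the side chain in peroxisomes, and the products are then joined to taurine, the main partner in mice. Bile acids limit their own synthesis through the receptor FXR (Nr1h4) and through a hormone of the intestine, Fgf15, and in mice oxysterols made from dietary cholesterol can raise Cyp7a1 through the receptor LXR.

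Two-sided tests with limma compared the diets on log2(intensity + 1) over all genes, and a gene is said to have risen or fallen where its Benjamini-Hochberg adjusted p was below 0.05. Differences are lovastatin/ezetimibe minus cholesterol, with n = 3 arrays per group. On this scale 3 of the 10 enzymes rose (Cyp39a1, Cyp8b1 and Akr1d1), 3 fell (Cyp7b1, Cyp7a1 and Amacr) and 4 did not pass the test (Cyp27a1, Hsd3b7, Slc27a5 and Baat). Of all genes tested, 12.1% passed, 7.01% higher and 5.08% lower, and of the 2072 genes at least as bright as Cyp39a1, the dimmest of the enzymes, 29.2% passed. After quantile normalisation the calls over all genes split into 47.7% higher and the rest lower, against 58.0% higher without it, and the calls of the 10 enzymes did not differ between these scalings. The median difference of the 10 enzymes was -0.07, and that of all genes was -0.01, so the list had no common direction. The values of the 2 diets did not overlap for 8 of the 10 enzymes, against 30.6% of all genes. That share was not taken over bright genes alone. Of the 9 measured hepatocyte markers, of which 0 passed, 5 did not overlap either.

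**Figure D1:**
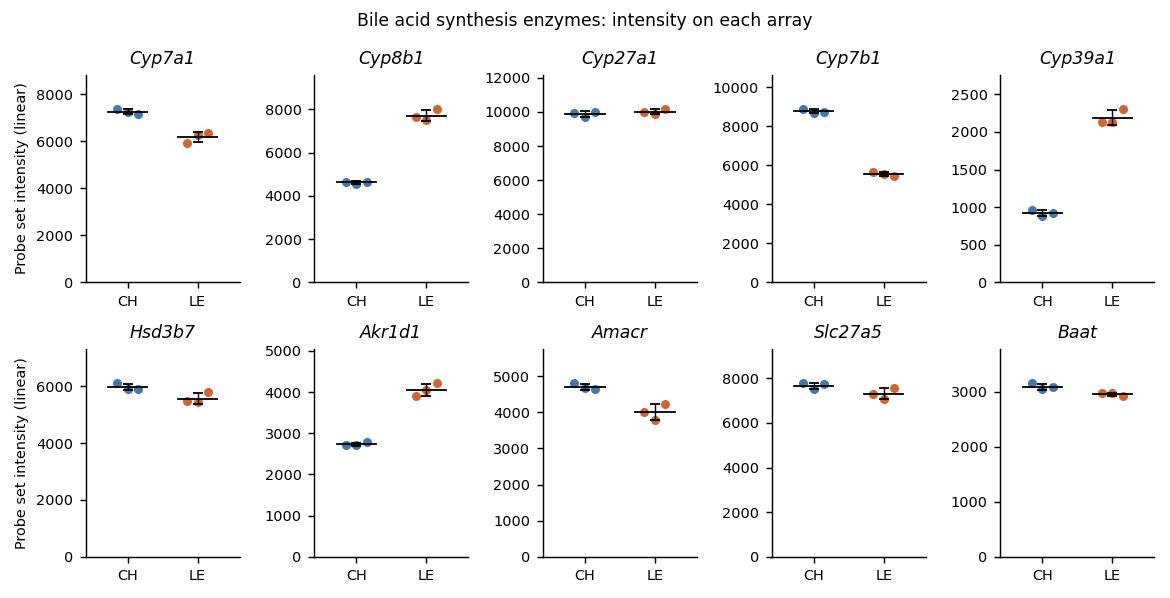
Probe set intensity (linear scale, axis from 0) of each bile acid synthesis enzyme on the 3 cholesterol arrays (CH, blue) and the 3 lovastatin/ezetimibe arrays (LE, orange); points are arrays, horizontal lines are group means and error bars are SD. Cyp39a1, Cyp8b1 and Akr1d1 lie higher on all LE arrays, Cyp7b1, Cyp7a1 and Amacr lower, and Cyp27a1 and Slc27a5 overlap.

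Cholesterol synthesis genes served as a check of the diets. Sqle, the squalene epoxidase, read 198, 199 and 182 on the cholesterol arrays and 8873, 8524 and 8943 on the others, and all 16 measured cholesterol synthesis genes rose. The arrays had near-equal median intensities, from 158.1 to 162.9. The 9 measured hepatocyte markers, among them Alb and Ttr, summed to 162825 to 165987 on the cholesterol arrays and to 161934 to 167593 on the others. None of these passed limma's test, 1 had an unadjusted p below 0.05, 3 passed when limma used an intensity trend and 2 in a cyberT-like test. Markers of other cells were examined as well, beside the 12.1% of all genes that passed. All 10 markers of Kupffer cells, the resident macrophages, rose (8 or 9 with 1 array left out), with sums of 7594 to 8089 against 10062 to 10539 (Cd68 by 0.55 and Cd163 by 0.50). Of the markers of lymphocytes and neutrophils 1 of 7 rose (Ptprc, by 0.26). Its call was lost without CH2, CH3, LE2 or LE3, after median centring and with a block for the replicate number (limma adjusted p 0.0564 to 0.123). Of the markers of stellate cells and fibroblasts 1 of 8 fell (Col3a1, by 0.19). That call was lost without any single array and with the block (limma adjusted p 0.0669 to 0.147). It was also lost in the cyberT-like test (adjusted p 0.0527). No cholangiocyte marker of 6 and no endothelial marker of 8 passed limma's test (2 of each had an unadjusted p below 0.05). With a trend 1 and 2 passed, and in the cyberT-like test 0 and 0. The cholangiocyte marker Cftr (limma adjusted p = 0.0522) passed in 5 of 14 alternatives, and 2 endothelial markers passed after quantile normalisation. In whole liver, fewer cells of a type and less RNA per cell cannot be told apart.

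Of the enzymes that rose, only Cyp8b1 and Akr1d1 had a window in the promoter set used here. They are shown by the 250 bases before their transcription start in RefSeq (build GRCm38.p6). The Cyp8b1 window lies at chr9:121916306-121916555 on the minus strand and the Akr1d1 window at chr6:37529923-37530172 on the plus strand, each written from 5′ to 3′ along its gene, with matches to the searched motifs in capitals.
Cyp8b1: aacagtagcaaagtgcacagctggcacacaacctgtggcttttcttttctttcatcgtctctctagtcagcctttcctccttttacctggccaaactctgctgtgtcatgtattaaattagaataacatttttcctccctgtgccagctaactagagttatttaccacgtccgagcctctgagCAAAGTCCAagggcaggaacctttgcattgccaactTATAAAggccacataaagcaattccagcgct
Akr1d1: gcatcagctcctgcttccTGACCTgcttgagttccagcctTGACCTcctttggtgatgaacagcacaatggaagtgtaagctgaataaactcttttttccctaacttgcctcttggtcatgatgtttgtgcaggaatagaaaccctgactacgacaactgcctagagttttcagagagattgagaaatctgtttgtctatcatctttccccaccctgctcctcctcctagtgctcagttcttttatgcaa

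The Cyp8b1 window holds CAAAGTCCA, a sequence bound by the hepatocyte factor HNF4A, at 67 to 59 bases before the start, and the TATA box TATAAA at 31 to 26 bases before it. CAAAGTCCA was found in 0.384% and TATAAA in 12.4% of 32851 promoter windows of the same length. The Akr1d1 window holds the nuclear receptor hexamer AGGTCA on its minus strand, printed as TGACCT, at 232 to 227 and at 210 to 205 bases before the start, and this hexamer was found in 14.0% of windows. The other motifs searched on both strands were the NR5A2 (LRH-1) sites CAAGGTCA, which contains AGGTCA, and CAAGGCCA, the sterol regulatory element TCACNCCAC, the D-box TTATGTAA and the E-box CACGTG, present in 1.33%, 1.99%, 1.05%, 0.819% and 6.02% of windows and in neither of these. No motif was shared by both windows. Only exact matches to these letters were counted, so a variant of a site would be missed. The lack of a match does not show that a factor has no site in a window. The windows of Cyp27a1 and Hsd3b7, which did not pass the test, held none of the 8 motifs. Guanine and cytosine made up 44.8% of the Cyp8b1 window, 45.2% of that of Akr1d1, 54.0% of that of Cyp27a1 and 58.0% of that of Hsd3b7, beside a median of 52.4% over all windows. The promoter set used here held no window for Cyp7a1, Cyp7b1, Cyp39a1, Amacr, Slc27a5 and Baat.

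In the classic pathway, the entry enzyme and the branch enzyme moved in opposite directions. Cyp7a1, which sets the rate of the classic pathway, had intensities of 7372, 7232 and 7180 on the cholesterol arrays and of 5951, 6286 and 6356 on the lovastatin/ezetimibe arrays. The groups did not overlap, and the level was 1.17-fold lower with lovastatin/ezetimibe (log2 difference -0.23, SE 0.05, limma adjusted p = 0.0227). The call was lost when CH1, CH2, CH3, LE1 or LE2 was left out (limma adjusted p 0.0607 to 0.0952; the 15 alternatives spanned 2.91e-05 to 0.0952).

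Cyp8b1, the hydroxylase whose activity directs synthesis to cholic acid, had intensities of 4668, 4566 and 4651 with cholesterol. With lovastatin/ezetimibe it had 7635, 7507 and 8012, a 1.67-fold rise (log2 difference 0.74, SE 0.05, limma adjusted p = 5.85e-05). Every lovastatin/ezetimibe array lay above every cholesterol array by far more than the spread within either group. The rise passed in all 15 alternatives.

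The contrast between these enzymes was also read within each array, where a scaling factor common to an array cancels. The zero of such a difference has no meaning, since the probes of each gene respond differently, and only its change between diets was compared. Cyp8b1 minus Cyp7a1 was -0.66, -0.66 and -0.63 on the cholesterol arrays and 0.36, 0.26 and 0.33 on the others, a shift of 0.97 on the log2 scale, or 1.95-fold. Cyp8b1 minus Cyp7b1 went from -0.92, -0.93 and -0.91 to 0.44, 0.44 and 0.55, a shift of 1.40 or 2.63-fold. Both pairs were chosen with the opposite changes of these genes known, so their separation between the diets is a description and adds no support to those changes.

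**Figure D2:**
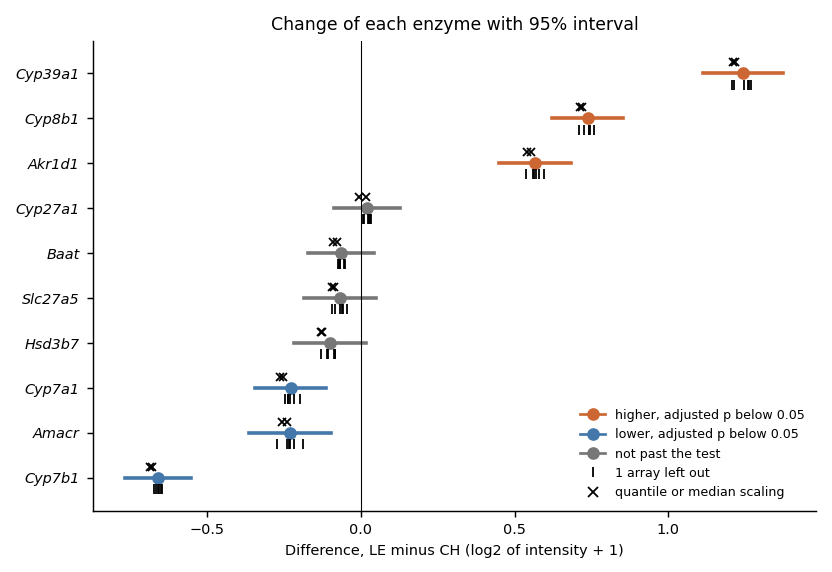
Difference between the diets for each enzyme (x axis, log2 of intensity + 1, LE minus CH) with its 95% interval from limma; ticks below a point are the values with 1 array left out and crosses above it those after quantile or median scaling. Cyp39a1 (1.24), Cyp8b1 (0.74) and Akr1d1 (0.57) lie to the right of 0 and Cyp7b1 (-0.66) to the left, with all their alternatives on the same side, while Cyp7a1 and Amacr lie closer to 0.

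The oxysterol hydroxylases, which act on cholesterol already oxidised on its side chain, held both the largest rise and the largest fall of the list. Cyp39a1, which hydroxylates the ring of oxysterols such as the one the brain makes from cholesterol, rose the most. Its intensities were 958, 887 and 928 with cholesterol and 2139, 2131 and 2303 with lovastatin/ezetimibe. The groups were well apart, with a 2.37-fold rise (log2 difference 1.24, SE 0.06, limma adjusted p = 6.93e-06) that passed in all 15 alternatives. Among the 1398 genes that rose, Cyp39a1 had the 86th largest difference and Cyp8b1 the 218th.

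Cyp7b1, the ring hydroxylase of the alternative pathway, fell the most. It read 8865, 8677 and 8743 with cholesterol and 5649, 5532 and 5460 with lovastatin/ezetimibe. The arrays within each diet were close together and the diets were apart by 1.58-fold (log2 difference -0.66, SE 0.05, limma adjusted p = 7.55e-05), in all 15 alternatives. Among the 1012 genes that fell, its difference ranked 83rd, against 851st for Cyp7a1 and 840th for Amacr.

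Cyp7b1 is more abundant in male and Cyp39a1 in female mouse liver. In these male mice, 7 of 9 measured genes known to be higher in male liver fell and 0 rose (limma), with summed intensities of 51673 to 53720 on the cholesterol arrays and 37077 to 38976 on the others. Moxd1, a monooxygenase-like gene, fell by 1.80 and Serpina12, the gene of the adipokine vaspin, by 1.14. Of 8 measured genes known to be higher in female liver, 5 rose and 0 fell, with sums of 2148 to 2273 against 4402 to 4692. Over all genes, 7.01% rose and 5.08% fell. Abcd2, a peroxisomal transporter, rose by 1.95 and Cyp17a1, a steroid hydroxylase, by 1.87. The part of this shift in the changes of Cyp7b1 and Cyp39a1 was not tested.

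Cyp27a1, the mitochondrial enzyme that opens the alternative pathway and also oxidises the side chain in the classic pathway, did not pass. It read 9930, 9681 and 10020 with cholesterol and 10008, 9897 and 10159 with lovastatin/ezetimibe, and the groups overlapped. The log2 difference was 0.02 (SE 0.05, limma adjusted p = 0.846), with a 95% interval from a 0.942-fold to a 1.09-fold level. Cyp7b1, at the next step of the alternative pathway, fell. Macrophages also express Cyp27a1, and the Kupffer markers given above were higher with lovastatin/ezetimibe. Their part in the Cyp27a1 level was not tested.

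Akr1d1 and Hsd3b7 modify the ring of the sterol without hydroxylating it. Akr1d1, the reductase that bends the ring system of the sterol, rose from 2706, 2716 and 2777 with cholesterol to 3899, 4041 and 4210 with lovastatin/ezetimibe. All lovastatin/ezetimibe arrays lay above the cholesterol arrays, and the rise was 1.48-fold (log2 difference 0.57, SE 0.05, limma adjusted p = 2.93e-04) and passed in all 15 alternatives. Hsd3b7, the dehydrogenase that acts between Cyp7a1 and Cyp8b1, read 6095, 5894 and 5912 with cholesterol and 5466, 5434 and 5798 with lovastatin/ezetimibe. Its groups did not overlap, but the difference of -0.10 (SE 0.05) did not pass (limma adjusted p = 0.274, and 0.0390 with an intensity trend and a robust prior).

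In side-chain shortening, Amacr, the racemase that prepares bile acid intermediates for peroxisomal oxidation, fell. It read 4799, 4682 and 4636 with cholesterol and 4007, 3783 and 4244 with lovastatin/ezetimibe, with no overlap. The level was 1.17-fold lower (log2 difference -0.23, SE 0.06, limma adjusted p = 0.0374). Its LE spread was the widest among the 10 enzymes (SD 0.08 on the log2 scale), and the call was lost when CH1, CH2, CH3, LE1 or LE2 was left out (limma adjusted p 0.0815 to 0.130; the 15 alternatives spanned 2.61e-04 to 0.130).

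Neither conjugating enzyme passed the test. Slc27a5, the ligase that activates bile acids with coenzyme A, read 7772, 7510 and 7734 with cholesterol and 7305, 7078 and 7577 with lovastatin/ezetimibe, and the groups overlapped. Its difference was -0.07 (SE 0.05, limma adjusted p = 0.471), with a 95% interval from 0.880-fold to 1.03-fold. Baat, which joins the activated bile acid to taurine or glycine, read 3154, 3049 and 3084 against 2980, 2973 and 2924. These values did not overlap, but the difference of -0.06 (SE 0.05, limma adjusted p = 0.451) did not pass, with an interval from 0.888-fold to 1.03-fold.

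**Figure D3:**
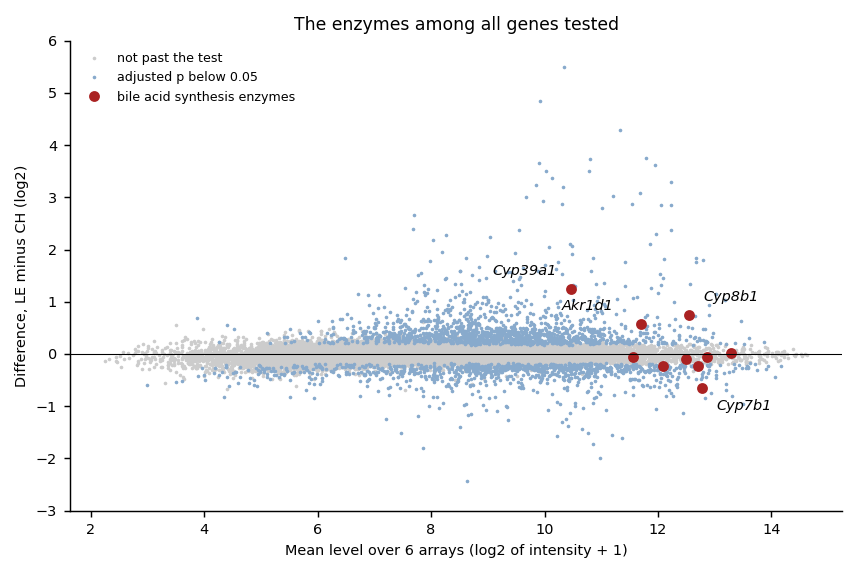
Mean level (x axis, log2 of intensity + 1 over 6 arrays) and difference between the diets (y axis, log2, LE minus CH) of all 19938 genes, with genes past limma's test in blue and the 10 bile acid synthesis enzymes as red points. The enzymes are among the brighter probe sets, and Cyp39a1 stands 1.24 above 0 and Cyp7b1 0.66 below it.

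The 10 enzymes varied little between arrays of a diet. Their SD on the log2 scale had a median of 0.03 on the cholesterol arrays, up to 0.06 for Cyp39a1, and a median of 0.05 on the lovastatin/ezetimibe arrays, up to 0.08 for Amacr. Part of this spread was shared by the enzymes of an array: LE3 was the highest lovastatin/ezetimibe array for 8 of the 10 genes and CH1 the highest cholesterol array for 8. The median gene of LE3 was also 0.03 above its group mean, and that of LE2 0.03 below, so the lovastatin/ezetimibe arrays differed slightly in overall level. On the cholesterol arrays the median gene deviated less, by 0.006 on CH1 and -0.002 on CH2. The median enzyme deviated by 0.02 and -0.019 on these arrays.

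Of 13 other enzymes of bile acid metabolism, 1 rose, 6 fell and 6 did not pass, with a median difference of -0.13. Thus 53.8% passed, beside 12.1% of all genes and 29.2% of genes at least as bright as Cyp39a1. Cyp2c70, which makes the muricholic acids typical of mice, fell 1.74-fold, from 12919, 13149 and 13900 with cholesterol to 7253, 7844 and 7875 (log2 difference -0.80, SE 0.06, limma adjusted p = 8.67e-05). Every lovastatin/ezetimibe array was below every cholesterol array. Sult2a8, a bile acid sulfotransferase, fell 1.61-fold, from 5914, 6003 and 6007 to 3717, 3666 and 3711 (log2 difference -0.69, SE 0.04, limma adjusted p = 4.84e-05). Acnat2, a relative of Baat, rose by 0.48 (SE 0.06, limma adjusted p = 0.00205), from 551, 485 and 515 to 723, 694 and 742. Cyp2c70, Sult2a8 and Acnat2 have close relatives in the genome, and whether transcripts of these bind the same probes was not tested, so their values are reported as uncertain.

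Acox2, the peroxisomal oxidase that follows the racemase, fell from 4720, 4823 and 4788 to 3633, 3581 and 3890 (log2 difference -0.37, SE 0.05, limma adjusted p = 0.00311). The remaining genes of the 6 that fell, singled out after their values were seen, were Scp2, the thiolase and sterol carrier, by 0.32 (SE 0.05), Slc27a2, an acyl-CoA ligase for bile acid intermediates, by 0.27 (SE 0.05), and Hsd17b4, the bifunctional enzyme between oxidase and thiolase, by 0.25 (SE 0.05), the last not without CH1 (limma adjusted p = 0.0554). The next 3 genes were also singled out after their values were seen. Acot8, a peroxisomal thioesterase, differed by -0.13 (SE 0.06) and did not pass (limma adjusted p = 0.200; past in 1 of 15 alternatives). Abcd3, a peroxisomal importer of bile acid intermediates and fatty acids, had a difference of 0.15 (SE 0.05) and did not pass (limma adjusted p = 0.088; past in 3 of 15). Ppara, the receptor that controls many peroxisomal genes, had a difference of -0.18 (SE 0.05) that did not pass (limma adjusted p = 0.0566) but passed in 7 of 15 alternatives (9.12e-04 to 0.179).

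**Figure D4:**
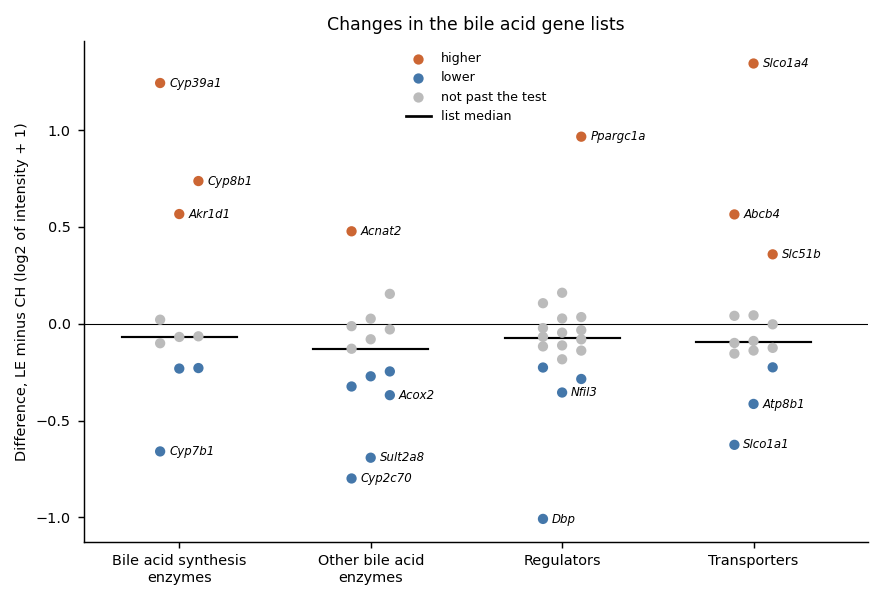
Difference between the diets (y axis, log2 of intensity + 1, LE minus CH) of each measured gene in the bile acid synthesis enzymes, the other bile acid enzymes, the regulators and the transporters; orange points rose, blue points fell, grey points did not pass limma's test and black lines are list medians. The medians lie between -0.13 and -0.07, and each list holds genes that rose and genes that fell.

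Of 18 measured regulators of bile acid synthesis, 1 rose, 4 fell and 13 did not pass (median difference -0.07). The share that passed, 27.8%, lay between the 12.1% of all genes and the 29.2% of genes at least as bright as Cyp39a1. The bile acid receptor FXR with its mediators, and the receptor LXR, were singled out here, whatever their values, as parts of the background. Nr1h4, the gene of FXR, read 1997, 1799 and 1902 with cholesterol and 1759, 1774 and 1853 with lovastatin/ezetimibe, with overlap (log2 difference -0.08, SE 0.06, limma adjusted p = 0.448). Nr0b2, the repressor SHP that FXR induces, read 1542, 1485 and 1522 against 1456, 1432 and 1323, lower on every lovastatin/ezetimibe array but not past the test (-0.11, SE 0.06, limma adjusted p = 0.265). Fgf15, the hormone of the intestine, read 112, 108 and 121 against 113, 109 and 108, with overlap (-0.05, SE 0.06, limma adjusted p = 0.698). These readings lay below the median intensities of the arrays, 158.1 to 162.9. The intestine was not sampled, so they do not show whether the hormone differed between the diets. The receptor pair for Fgf15 differed by 0.16 for Fgfr4 (limma adjusted p = 0.075) and -0.14 for Klb (limma adjusted p = 0.161). Neither passed the test, but each passed it in 3 of 15 alternatives. The oxysterol receptor Nr1h3 (LXR alpha) differed by 0.03 (limma adjusted p = 0.798). Nr1h2 (LXR beta), also listed, was not measured. These values are RNA levels, and the activity of the receptors was not tested.

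The regulator that rose was Ppargc1a, a coactivator of fasting metabolism that can raise Cyp7a1. It went from 417, 392 and 426 with cholesterol to 754, 788 and 877 with lovastatin/ezetimibe, a 1.95-fold rise with no overlap (log2 difference 0.97, SE 0.07, limma adjusted p = 8.68e-05). Cyp7a1 follows a daily rhythm, and 3 of the regulators that fell are clock-controlled. Dbp, an activator of Cyp7a1 through D-boxes, fell 2.01-fold, from 883, 919 and 937 to 459, 430 and 472 (log2 difference -1.01, SE 0.06, limma adjusted p = 1.92e-05). Nfil3, which represses at the same element, fell by 0.36 (SE 0.05) and Nr1d1, the clock repressor Rev-erb alpha, by 0.29 (SE 0.05), the latter not without CH1 (limma adjusted p = 0.0528). Foxo1, a factor inhibited by insulin, was the other regulator that fell, by 0.23 (SE 0.05). It passed without LE3 but not without any of the other 5 arrays, nor with the block for the replicate number (limma adjusted p 0.0737 to 0.123). The part of these regulators in the Cyp7a1 level was not tested.

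Of 14 bile acid and biliary lipid transporters, 3 rose, 3 fell and 8 did not pass (median difference -0.09). Thus 42.9% passed, beside 12.1% of all genes and 29.2% of genes at least as bright as Cyp39a1. Slco1a4, an uptake transporter of organic anions, rose 2.54-fold, from 1216, 1153 and 1225 to 3010, 2998 and 3119, while its relative Slco1a1, itself among the male-biased genes, fell from 5111, 5002 and 5389 to 3232, 3506 and 3310 (log2 differences 1.34 and -0.63). The Slco1a genes have related copies, and cross-binding of their transcripts was not tested. Abcb4, which exports phosphatidylcholine into bile, rose 1.48-fold, from 3371, 3428 and 3407 to 4951, 5030 and 5117 (limma adjusted p = 1.70e-04). Atp8b1, a flippase of the canalicular membrane, fell by 0.41 (SE 0.06, limma adjusted p = 0.00257). The other calls were Slc51b and Slco1b2. Slc51b, a subunit of the basolateral bile acid exporter, rose by 0.36 (lost without CH1, CH2, LE2 or LE3, limma adjusted p 0.0770 to 0.0983). The uptake transporter Slco1b2 fell by 0.23. Its call was lost without any array but CH2 and with the block for the replicate number (limma adjusted p 0.0519 to 0.103). The main uptake transporter Slc10a1 (0.04, limma adjusted p = 0.670) and the canalicular bile salt pump Abcb11 (-0.15, limma adjusted p = 0.092), singled out for their roles, did not pass, and they passed in 0 and 5 of 15 alternatives.

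Bile acid enzymes are zoned along the liver lobule, with Cyp7a1 near the central vein. Of 10 pericentral markers 3 rose (1 without CH1, CH2, LE2 or LE3), 1 fell and 6 did not pass, with summed intensities of 62357 to 63663 on the cholesterol arrays and 61307 to 64717 on the others. Lgr5, a Wnt receptor, rose by 0.35 and Rgn, a calcium-binding protein, fell by 0.46. Of 7 measured periportal markers 1 rose (0 without CH1), 4 fell and 2 did not pass, with sums of 51947 to 52845 against 47331 to 49900. Etnppl, an ethanolamine phosphate lyase, fell by 1.08 and Hal, the histidine lyase, by 0.34. Their part in the fall of Cyp7a1 was not tested.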

How the data were processed

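The files hold 1 intensity per probe set and array, on a linear scale, as deposited. Trizol was used for extraction per the labels, and Partek Genomics Suite with cyberT for the authors' own test per the series design. How the authors corrected background, normalised and summarised probes, and on which genome build, is not given in the sources used here. Of 35556 probe sets, 21789 had a single gene symbol, 1621 several and 12146 none in the platform annotation. For each gene the brightest single-gene probe set by mean was kept (19938 genes, of which 19856 matched RefSeq by identifier, with 0 symbols changed). Gene coordinates were not used in the tests.

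Diets were compared on log2(intensity + 1) by linear models with moderated variances (limma 3.58.1, R 4.3.3). The tests were two-sided, and p-values were adjusted over all genes (Benjamini-Hochberg, threshold 0.05). This scale understates fold changes of dim genes, and 3 arrays per group limit the precision. The planned permutation test of the within-array differences is not given, since the choice of pairs fixed its outcome. The fits were checked on simulated data. At most 28 probe sets were identical between any 2 arrays. The members and lists were chosen with earlier results of these data known. Named were all members, up to 4 called genes of each bile acid list and up to 2 of each marker list with the largest change, and Sqle; another gene of the plan is not reported here. Other names are said to have been singled out or complete a short count. The alternatives were quantile normalisation, median centring, a filter on the dimmest 33.3% of genes, averaging a gene's probe sets, an intensity trend with a robust prior, a cyberT-like test (window of 101 genes, prior weight 10), pseudocounts of 16 and none, a block for the replicate number, leaving out each array, and, for counts over all genes, a 1.5-fold limit.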

Additional observations from a re-analysis of the deposited data

How the results depend on the processing

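The rises of Cyp39a1, Cyp8b1 and Akr1d1 and the fall of Cyp7b1 passed in all 15 alternatives. The lower members numbered 1 with the replicate block and 1 to 3 with 1 array left out, since Cyp7a1 (-0.23, limma adjusted p = 0.0682) and Amacr (-0.23, 0.0796) did not pass with the block; with 1 array left out their differences were -0.25 to -0.20 and -0.27 to -0.19. Hsd3b7 passed with the intensity trend (-0.10). The replicate numbers did not pair the arrays (r of deviations between same-numbered arrays -0.02, -0.10 and 0.16). Calls over all genes numbered 2410 and, with 1 array left out, 1489 (without CH1) to 1868 (without LE3); the lower ones, 1012, numbered 1598 after quantile normalisation (3058 in all, 1460 higher), 1560 with the intensity trend, 657 with the replicate block, and 525 (without LE2) to 893 with 1 array left out. At least 1.5-fold changes were 436, with 316 higher and 120 lower. Other enzymes that rose were 2 without the dimmest 33.3% of genes, with the trend and in the cyberT-like test. Regulators that rose were 2, 3 and 3 in these settings, and those that fell 7 with the trend and 2 to 5 with 1 array left out (2 without CH1). Transporters that fell were 6 after quantile normalisation, with the trend and in the cyberT-like test. The cause of these differences was not tested.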
